A study of Mus musculus with 9 samples.

Results

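The cytochrome P450 genes of families 1, 2 and 3 were examined in mouse liver. Every gene whose symbol begins with Cyp1, Cyp2 or Cyp3 followed by a letter was taken, except Cyp2b9, Cyp2b13, Cyp2a22 and Cyp2c70, which the rule leaves out. This gave 50 of the 19938 genes measured, in 17 subfamilies, each read by 1 probe set of the array. The largest subfamilies were Cyp2c with 12 genes, Cyp2d with 10, and Cyp2j and Cyp3a with 6 each. A further 7 symbols of the rule (Cyp2a4, Cyp2a5, Cyp2c40, Cyp2c69, Cyp3a41a, Cyp3a41b and Cyp3a59) lay only on probe sets annotated with several genes and were not used here. Of the 50 genes, 2 (Cyp2d13 and Cyp2d37-ps) are listed by RefSeq as not protein coding.

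Cytochrome P450 enzymes are haem proteins of the endoplasmic reticulum that insert an oxygen atom into fat-soluble substrates, with electrons passed on by P450 oxidoreductase (Por) and cytochrome b5. Families 1, 2 and 3 hold most of the enzymes that oxidize drugs, plant compounds and pollutants, and several of them also act on steroids, bile acids and polyunsaturated fatty acids. Hepatocytes express them most strongly. Some are induced through ligand-activated receptors, the Ah receptor for Cyp1a, CAR (Nr1i3) for Cyp2b and PXR (Nr1i2) for Cyp3a, and others, chiefly in Cyp2b, Cyp2c and Cyp2d, follow the sex-dependent pattern of growth hormone.

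Male mice of 3 groups, 6 weeks old at the start and kept on normal chow, were compared. N-control mice were lean wild-type C57BL/6J littermates. OB-control mice were ob/ob (B6.V-Lepob/J), which lack leptin throughout the body and are obese. OB-TUDCA mice were ob/ob mice that received TUDCA, a taurine-conjugated bile acid, at 500 mg/kg. Every group was gavaged 2 times a day for 3 weeks, and both control groups got tap water in place of TUDCA. All were killed after 8 h of fasting. The methods give 6 mice per group, and liver RNA was read on 3 Affymetrix arrays (Mouse Gene 1.0 ST) per group, labelled as biological replicates. Whether each array holds RNA of 1 mouse is not stated in the sources used here. Wild-type mice given TUDCA were not analysed here, so the groups cannot separate an effect of TUDCA from one that needs the ob/ob genotype. Values are log2 signals, on which a difference of 1 is a doubling, and are compared only within a gene, since probe sets differ in how they bind.

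Hepatocyte markers were high on every array. The mean over 7 measured genes was 12.61 to 12.68 on the N-control and 12.41 to 12.51 on the OB-control arrays. It was 12.59 to 12.64 on the OB-TUDCA arrays, so that the OB-control means lay slightly under those of both other groups. The 7 genes did not move together. Against N-control, 6 of them were lower in OB-TUDCA liver, and Hnf4a alone was higher, by 0.58. Against OB-control, 5 were higher with TUDCA and 2 lower. The largest differences there were those of Apoa1 (0.43) and Hnf4a (0.41), the former named after its values were seen. Pancreatic acinar genes stood apart on 1 array: 15 of 18 were measured, and their mean was 10.57 on N-control replicate 2 against 3.88 to 4.37 on the other 8. The counts of called genes were therefore also computed without that array. Mean signals of Kupffer cell (6.65 to 7.41) and sinusoidal endothelial markers (7.26 to 7.55) overlapped between the groups. Single endothelial markers moved in opposite directions in OB-TUDCA against N-control, where 3 of 6 passed the threshold. Lyve1 was higher by 2.44 (adjusted p = 0.011), Kdr differed by -1.17 (adjusted p = 0.0218) and Oit3 by -0.65 (adjusted p = 0.00842), all named after their values were seen. The means of 6 stellate cell markers on the OB-TUDCA arrays (6.43 to 6.61) lay above those on the N-control arrays (6.27 to 6.39), and those of 4 cholangiocyte markers (5.0 to 5.23) above those on the OB-control arrays (4.68 to 4.91). The part of these shifts in the results below was not tested. Of the 50 P450 genes, 31 had a mean signal at or above the median of all genes and 19 were under it. Those 19, which include Cyp1a1, Cyp1b1, Cyp2ab1, Cyp2b19, Cyp2g1, Cyp2j11, Cyp2s1, Cyp2t4 and Cyp2w1, lay between 2.39 and 4.61, where differences on an array are compressed.

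The promoters of the genes on which the results turn are shown first, each running from 250 bases before to 50 bases after the listed start, as RefSeq gives it on GRCm38.p6. The table held a promoter for 41 of the 50 genes and none for Cyp2c23, Cyp2c54, Cyp2d12, Cyp2d13, Cyp2d22, Cyp2d34, Cyp2d37-ps, Cyp2g1 or Cyp2u1. Cyp1a2 (chr9:57683606-57683905, minus strand) and Cyp2d9 (chr15:82452127-82452426, plus) fell in ob/ob liver, Cyp2b10 (chr7:25897408-25897707, plus) rose, and Cyp2a12 (chr7:27028840-27029139, plus) fell with TUDCA. Cyp2d10 (chr15:82407145-82407444, minus) is printed because it resembles Cyp2d9. Cyp2c38 (chr19:39463026-39463325, minus) and Cyp2c39 (chr19:39347096-39347395, plus, the first of 2 listed starts) had a higher mean in ob/ob liver, and Cyp2c67 (chr19:39648993-39649292, minus) and Cyp2c68 (chr19:39741052-39741351, minus) a lower one. Capitals mark letters of the 5 motifs that were searched on both strands. These are the core of the xenobiotic response element (GCGTG), the TATA box (TATAAA), the CCAAT box (CCAAT), the Stat5 site (TTCNNNGAA) and the nuclear receptor half-site (AGGTCA).
Cyp1a2: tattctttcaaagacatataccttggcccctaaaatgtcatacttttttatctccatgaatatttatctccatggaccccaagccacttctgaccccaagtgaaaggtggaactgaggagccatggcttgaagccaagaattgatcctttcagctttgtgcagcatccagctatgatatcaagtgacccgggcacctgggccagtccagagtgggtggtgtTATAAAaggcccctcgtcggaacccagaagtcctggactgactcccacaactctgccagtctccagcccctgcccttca
Cyp2b10: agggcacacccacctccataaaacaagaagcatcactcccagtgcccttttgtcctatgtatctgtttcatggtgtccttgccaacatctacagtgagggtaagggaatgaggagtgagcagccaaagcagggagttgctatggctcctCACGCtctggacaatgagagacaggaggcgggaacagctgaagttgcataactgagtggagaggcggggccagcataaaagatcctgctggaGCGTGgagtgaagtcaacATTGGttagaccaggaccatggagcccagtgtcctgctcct
Cyp2a12: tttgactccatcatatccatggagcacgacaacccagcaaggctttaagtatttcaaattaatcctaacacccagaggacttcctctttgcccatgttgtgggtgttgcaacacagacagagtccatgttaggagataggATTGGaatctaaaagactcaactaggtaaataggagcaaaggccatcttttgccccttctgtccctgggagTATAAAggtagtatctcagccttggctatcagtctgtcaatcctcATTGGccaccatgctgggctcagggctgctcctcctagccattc
Cyp2d9: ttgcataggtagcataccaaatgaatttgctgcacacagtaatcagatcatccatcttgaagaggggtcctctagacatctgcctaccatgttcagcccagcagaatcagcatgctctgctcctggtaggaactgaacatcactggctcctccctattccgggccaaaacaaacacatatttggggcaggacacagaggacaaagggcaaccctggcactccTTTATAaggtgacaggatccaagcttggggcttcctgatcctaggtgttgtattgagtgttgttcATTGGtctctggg
Cyp2d10: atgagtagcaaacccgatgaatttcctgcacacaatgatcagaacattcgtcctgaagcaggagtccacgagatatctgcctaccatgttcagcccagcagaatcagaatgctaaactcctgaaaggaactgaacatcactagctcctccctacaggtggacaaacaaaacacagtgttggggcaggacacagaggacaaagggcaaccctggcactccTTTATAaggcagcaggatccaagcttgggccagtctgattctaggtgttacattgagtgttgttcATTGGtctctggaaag
Cyp2c38: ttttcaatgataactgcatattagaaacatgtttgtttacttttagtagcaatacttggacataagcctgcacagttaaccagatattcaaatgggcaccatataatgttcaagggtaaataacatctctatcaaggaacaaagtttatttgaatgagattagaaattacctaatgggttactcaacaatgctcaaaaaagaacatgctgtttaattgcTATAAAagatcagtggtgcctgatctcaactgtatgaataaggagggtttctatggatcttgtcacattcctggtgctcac
Cyp2c39: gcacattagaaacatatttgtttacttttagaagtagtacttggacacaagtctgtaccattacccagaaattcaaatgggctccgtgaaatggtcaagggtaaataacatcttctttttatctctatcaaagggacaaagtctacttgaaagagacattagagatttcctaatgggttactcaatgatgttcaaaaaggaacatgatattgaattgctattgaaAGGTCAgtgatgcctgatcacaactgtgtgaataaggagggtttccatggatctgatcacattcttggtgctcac
Cyp2c67: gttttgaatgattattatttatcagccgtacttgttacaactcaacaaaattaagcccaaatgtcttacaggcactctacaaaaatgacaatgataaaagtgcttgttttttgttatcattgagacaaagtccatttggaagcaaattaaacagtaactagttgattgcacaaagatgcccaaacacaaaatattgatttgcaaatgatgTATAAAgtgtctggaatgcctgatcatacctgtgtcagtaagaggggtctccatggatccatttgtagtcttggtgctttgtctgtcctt
Cyp2c68: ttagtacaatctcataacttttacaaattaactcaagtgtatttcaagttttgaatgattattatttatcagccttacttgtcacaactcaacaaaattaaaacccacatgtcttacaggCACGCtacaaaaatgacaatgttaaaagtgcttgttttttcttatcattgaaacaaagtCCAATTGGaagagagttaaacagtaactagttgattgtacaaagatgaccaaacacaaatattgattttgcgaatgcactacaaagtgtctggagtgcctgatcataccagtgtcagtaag

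A TATA box was found in 19 of the 41 promoters (46.3%), against 14.2% of all 27025 promoters of the same length. The nuclear receptor half-site was in 12 (29.3%, against 16.0% of all), CCAAT in 21 (51.2%, against 37.9%) and the xenobiotic core in 10 (24.4%, against 32.5%). Stat5 letters were in 2 promoters (4.9%, against 8.5% of all). In Cyp1a2 the TATA box began 29 bases before the start, and none of the other 4 motifs was found in this window. The Cyp2b10 window held the xenobiotic core 2 times and no nuclear receptor half-site of these exact letters. Sequence outside the window was not searched. Of 300 bases, the promoters of Cyp2d9 and Cyp2d10 shared 84.0% in a global alignment, those of Cyp2c38 and Cyp2c39 82.0% and those of Cyp2c67 and Cyp2c68 76.7%. Over the 45 pairs of Cyp2c promoters the median identity was 58.3%, with a range of 49.7% to 88.0%. In the CCAATTGG of Cyp2c68 the CCAAT box of one strand overlaps that of the other. A match of letters is a description and not a binding site.

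In OB-control compared with N-control liver, 1 P450 gene rose and 2 fell at an adjusted p under 0.05 from limma, Benjamini-Hochberg adjusted over all genes. Over all 19938 genes, 0.456% were called higher and 0.492% lower. Cyp2b10, the phenobarbital-inducible enzyme and the best known target of CAR, rose 4.13-fold. Cyp1a2, which oxidizes caffeine and aromatic amines, fell 2.37-fold, and Cyp2d9, a male-predominant steroid hydroxylase, fell 2.45-fold. Without adjustment, 8 genes were higher (6.55% of all genes) and 18 lower (5.59% of all) at a p under 0.05. The arrays of the groups did not overlap for 7 higher genes (8.49% of all) and 15 lower genes (6.77% of all). Means were higher for 24 of the 50 genes (57% of all genes) and lower for 26 (42.9% of all). The median difference over the 50 genes was -0.01, against 0.02 over all genes. Among the 31 genes with signal above the median of all genes, the median difference was -0.24 and 20 of 31 means were lower, against a median of 0.01 and 4744 lower means over all 9969 genes at or above that signal.

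Treatment of ob/ob mice with TUDCA went with small differences that mostly had the same sign. The OB-TUDCA mean was under the OB-control mean for 44 of the 50 genes (46.3% of all genes) and above it for 6 (53.6% of all). The median difference was -0.18, against 0.01 over all genes and -0.12 over the 33 genes of other P450 families. All 12 Cyp2c and all 10 Cyp2d genes had the lower mean, and of the 31 genes with the higher signals 29 did, against 4657 of all 9969 genes at or above the median signal. Yet only Cyp2a12 passed the threshold, as lower (0.186% of all genes were called lower), and none passed as higher (0.115% of all). Without adjustment 8 genes were lower (5.72% of all) and 1 was higher (6.26% of all), and arrays did not overlap for 8 lower genes (6.53% of all) and 1 higher gene (7.26% of all). The number with a lower mean lay between 40 and 45 when each array was left out in turn. The 50 genes are read on the same 6 arrays and include near copies of each other, so these counts are not 50 independent observations. In bulk liver, fewer cells of a type and less RNA per cell cannot be told apart.

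**Figure D1:**
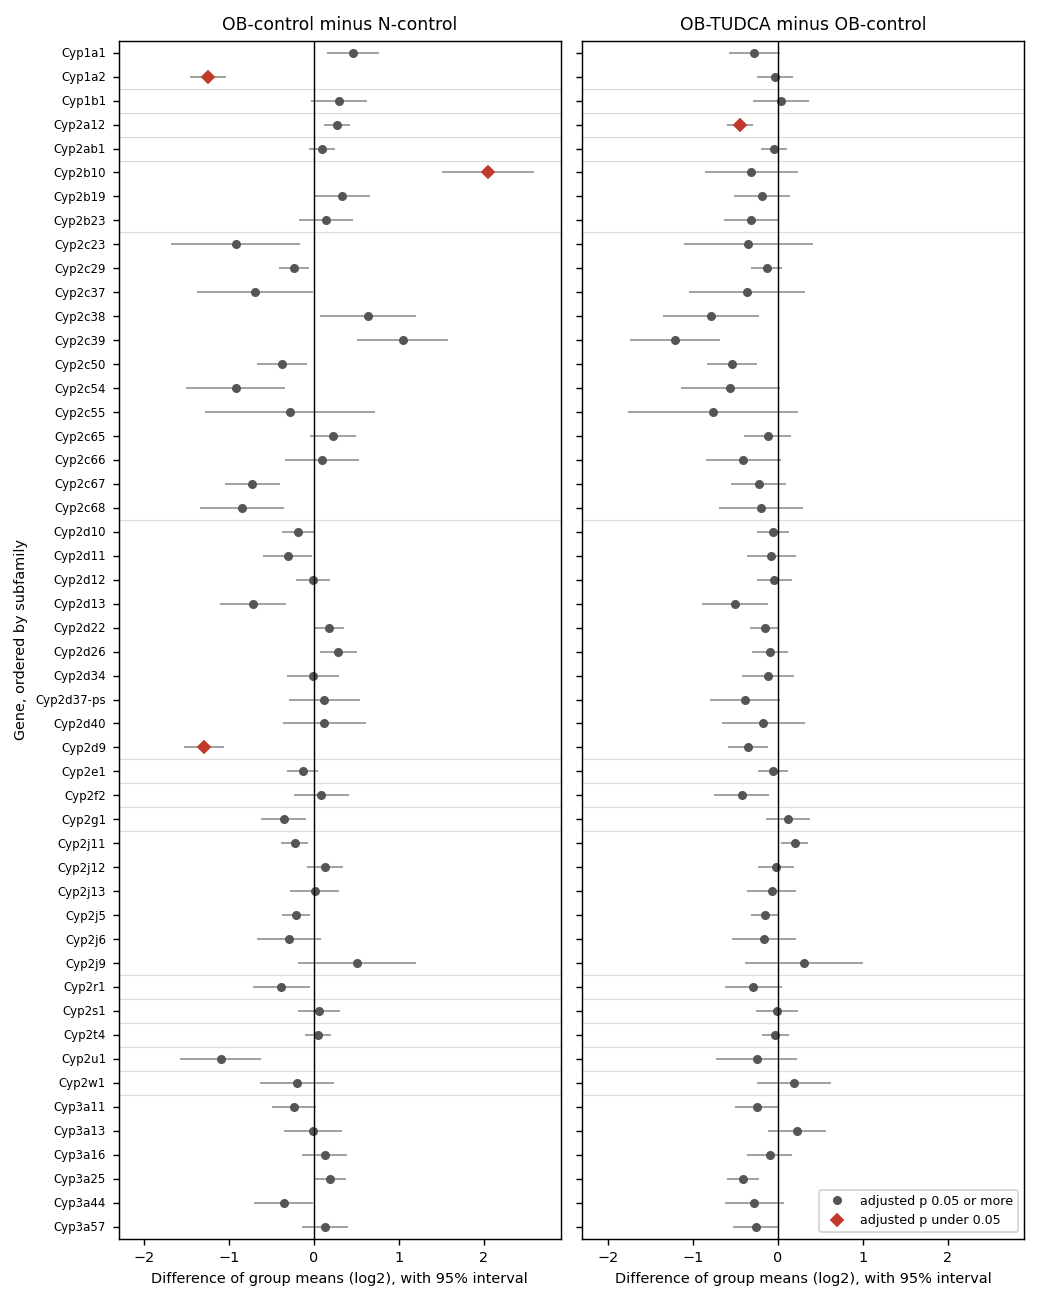
Difference of group means on the log2 scale for each of the 50 genes (points) with its 95% interval (lines), OB-control minus N-control on the left and OB-TUDCA minus OB-control on the right, ordered by subfamily. Red diamonds are genes with an adjusted p under 0.05, which are Cyp1a2, Cyp2b10 and Cyp2d9 on the left and Cyp2a12 on the right, where 44 of the 50 points lie to the left of 0.

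OB-TUDCA liver was also compared with N-control liver, which shows where TUDCA-treated ob/ob liver stood relative to the lean one. Here 11 genes fell (1.89% of all genes were called lower) and 1, Cyp2b10, rose (1.35% of all). The 11 were Cyp1a2, Cyp2c29, Cyp2c50, Cyp2c54, Cyp2c67, Cyp2c68, Cyp2d9, Cyp2d13, Cyp2j5, Cyp2r1 and Cyp2u1. Means were lower for 36 genes (40.3% of all) and higher for 14 (59.6% of all). Without adjustment 23 genes were lower (8.15% of all) and 3 higher (10.4% of all) at a p under 0.05. Arrays did not overlap for 22 lower genes (8.95% of all) and 3 higher genes (11.8% of all). For 22 of the 50 genes the mean was highest in N-control and lowest in OB-TUDCA liver. For 11 it was highest in OB-control and lowest in OB-TUDCA, and for another 11 highest in OB-control and lowest in N-control. The 3 comparisons share arrays, so their counts are not independent of one another. Without N-control replicate 1, N-control replicate 2 or OB-TUDCA replicate 2 the number that fell was 4, 5 and 4, and with the acinar mean as a covariate it was 6. Cyp1a2, Cyp2c50, Cyp2d9, Cyp2d13 and Cyp2b10 are the calls of this comparison that held whichever array was left out. Means over the marker lists of both liver zones were also lower here. That of 8 pericentral genes was 8.25 to 8.65 on the N-control and 7.91 to 8.23 on the OB-TUDCA arrays. That of 5 measured periportal genes was 10.46 to 10.64 and 9.94 to 10.21. The lists were not uniform: 1 pericentral and 2 periportal genes had a higher mean in OB-TUDCA. The largest falls were those of Lgr5 (-1.05, pericentral) and Cdh1 (-1.45, periportal), named after their values were seen. The part of these shifts in the results was not tested.

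**Figure D2:**
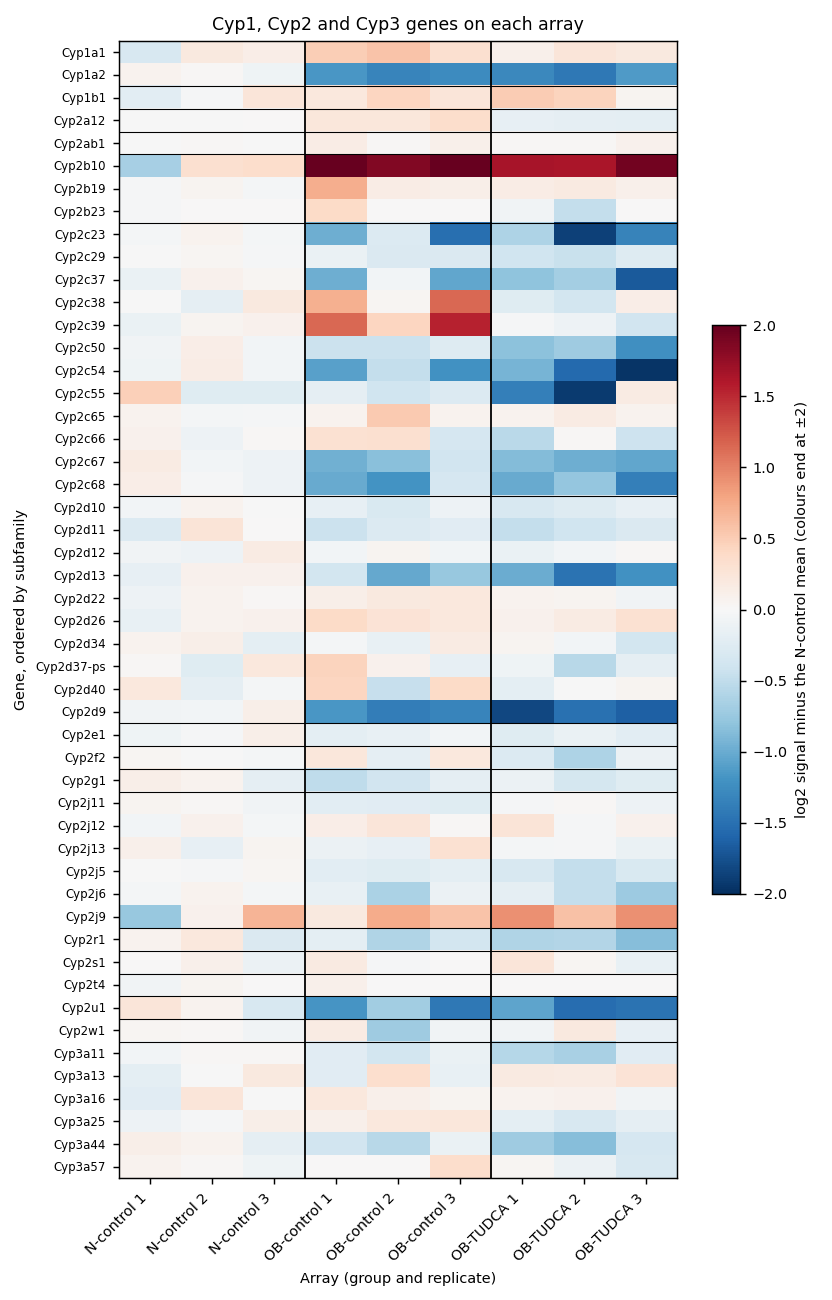
Log2 signal of each gene on each of the 9 arrays, minus the mean of the 3 N-control arrays, with genes in rows by subfamily and arrays in columns by group. Blue is lower and red higher than N-control. Cyp2b10 is red on all 6 ob/ob arrays, and Cyp1a2, Cyp2c54, Cyp2c67, Cyp2c68 and Cyp2d9 are blue there.

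Family 1 holds the enzymes induced through the Ah receptor. Cyp1a2 had log2 signals of 11.81, 11.75 and 11.64 on the N-control arrays, 10.57, 10.42 and 10.48 on the OB-control arrays, and 10.45, 10.31 and 10.61 on the OB-TUDCA arrays. All 6 ob/ob arrays lay more than 1 log2 unit below the lowest lean one, and those of treated and untreated ob/ob mice overlapped. The difference was -1.25 between OB-control and N-control (standard error 0.09, adjusted p = 0.00048 from limma) and -1.28 between OB-TUDCA and N-control (adjusted p = 0.000345). Between OB-TUDCA and OB-control it was -0.03, with a 95% interval of -0.24 to 0.18. Cyp1a1, which lies beside it and is the classical target of the Ah receptor, had means of 3.66 ± 0.28, 4.12 ± 0.13 and 3.84 ± 0.07 (SD, n = 3 arrays each) in N-control, OB-control and OB-TUDCA liver. Its mean was thus higher in OB-control liver, by 0.46 (standard error 0.13), but not past the threshold (adjusted p = 0.188 from limma). Cyp1b1, mostly found outside hepatocytes, differed by 0.29 and 0.04 in OB-control and with TUDCA (standard error 0.15 for both).

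Among the 50 genes, Cyp2b10 was the one called higher. Its log2 signals were 7.45, 8.43 and 8.46 on the N-control arrays, 10.25, 9.97 and 10.25 on the OB-control arrays, and 9.76, 9.74 and 10.04 on the OB-TUDCA arrays. Every ob/ob array exceeded every lean one, and N-control replicate 1 lay well below the other lean arrays. The difference was 2.05 in OB-control liver (standard error 0.24, adjusted p = 0.00596 from limma) and 1.74 in OB-TUDCA liver (adjusted p = 0.00782), both against N-control. Fitting only the arrays of these groups, without OB-TUDCA, lost the call in OB-control (adjusted p = 0.0576). TUDCA left a difference from OB-control of -0.31, with a 95% interval of -0.86 to 0.23. Of the other Cyp2b genes among the 50, Cyp2b19, an epidermal enzyme, differed by 0.33 in OB-control liver (adjusted p = 0.411) and Cyp2b23 by 0.14, both at low signal. Cyp2b9 and Cyp2b13, which the rule leaves out of the 50, rose in OB-control liver too, by 4.67 (adjusted p = 4.18e-07) and 5.99 (adjusted p = 0.00053). With TUDCA they differed from OB-control by -0.48 (adjusted p = 0.206) and -2.02 (adjusted p = 0.109), with no overlap of arrays.

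Cyp2a12, a steroid hydroxylase of liver, was the gene called lower with TUDCA. It read 10.52, 10.52 and 10.53 on the N-control arrays, 10.74, 10.75 and 10.87 on the OB-control arrays, and 10.36, 10.33 and 10.32 on the OB-TUDCA arrays. The 3 groups did not overlap, with OB-control on top and OB-TUDCA at the bottom, and their means spanned 0.45. The fall with TUDCA was 0.45 on the log2 scale, or 1.37-fold (difference -0.45, standard error 0.07, adjusted p = 0.0386 from limma). This call held with 1 array left out only for OB-TUDCA replicate 1. Without N-control replicate 1, 2 or 3 the adjusted p was 0.0744, 0.0798 and 0.0626, without OB-control replicate 1, 2 or 3 it was 0.125, 0.0563 and 0.0809, and without OB-TUDCA replicate 2 or 3 it was 0.146 and 0.109. The difference itself stayed close, for example -0.41 without OB-control replicate 3. It was also not called with array medians subtracted (0.0507), with only the arrays of both groups (0.143) or with the acinar mean as a covariate (0.0799), and by the methods' own test on these values the adjusted p was 0.327.

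**Figure D3:**
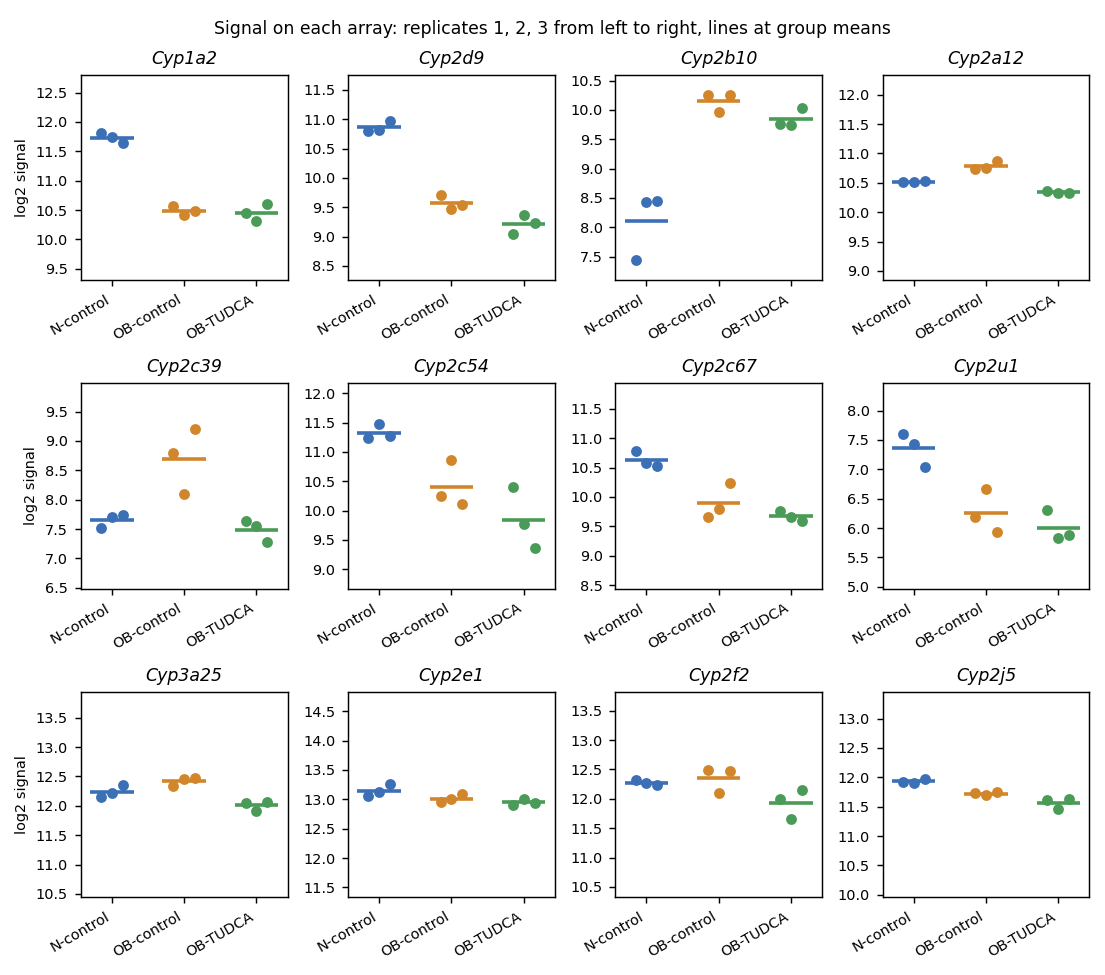
Log2 signal of 12 P450 genes on each array, as points by group in the order of replicates 1, 2 and 3, with a line at each group mean. All panels span the same number of log2 units. Cyp1a2 and Cyp2d9 are lower and Cyp2b10 is higher on every ob/ob array than on any lean array, and Cyp2c39 is highest in OB-control.

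The Cyp2c genes, which include epoxygenases of arachidonic acid and drug oxidases and lie together on chromosome 19, were with 12 members the largest subfamily. In OB-control liver 8 of the 12 had a lower and 4 a higher mean than in N-control, and none passed the threshold (without adjustment 7 lower and 2 higher genes reached a p under 0.05). In OB-TUDCA liver 5 fell against N-control. Cyp2c54 had log2 signals of 11.24, 11.48 and 11.27 on the N-control arrays, 10.25, 10.86 and 10.11 on the OB-control arrays, and 10.40, 9.77 and 9.37 on the OB-TUDCA arrays. Its lean arrays lay above all ob/ob arrays, while OB-control and OB-TUDCA overlapped. It differed from N-control by -0.92 in OB-control (standard error 0.26, adjusted p = 0.171 from limma) and fell by 1.48 on the log2 scale, 2.80-fold, in OB-TUDCA (adjusted p = 0.0182). Dropping N-control replicate 1 or 2 ended that call (adjusted p = 0.0688 and 0.0692), as did dropping OB-TUDCA replicate 2 or 3 (0.0783 and 0.052).

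Cyp2c67 and Cyp2c68, next to each other on the chromosome, also had lower means in OB-control and OB-TUDCA than in N-control. Cyp2c67 read 10.79, 10.57 and 10.52 in N-control, 9.66, 9.79 and 10.24 in OB-control, and 9.76, 9.65 and 9.59 in OB-TUDCA. The lean arrays were the highest, and OB-control replicate 3 was the nearest to them. The difference of OB-control from N-control was -0.73 (standard error 0.14) and missed the threshold with all arrays (adjusted p = 0.0577 from limma). It passed without OB-control replicate 3 (adjusted p = 0.0158), but leaving out the array nearest to the lean ones widens the difference by construction. In OB-TUDCA liver it fell by 0.96 on the log2 scale (adjusted p = 0.0102), and this call was lost without N-control replicate 1 (0.05) or OB-TUDCA replicate 2 (0.0528). Cyp2c68 differed by -0.85 in OB-control (adjusted p = 0.139, and 0.0414 without OB-control replicate 3, again the array nearest to the lean ones). It fell by 1.05 in OB-TUDCA (adjusted p = 0.0358), a call that was lost without any 1 array other than OB-control replicates 2 and 3 (adjusted p from 0.0627 to 0.142).

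Cyp2c50 was lower in each step. It read 11.24, 11.44 and 11.26 in N-control, 10.88, 10.89 and 11.05 in OB-control, and 10.50, 10.60 and 10.09 in OB-TUDCA, and the 3 groups did not overlap. Its difference was -0.38 in OB-control (adjusted p = 0.276) and -0.54 from OB-control to OB-TUDCA (standard error 0.13, adjusted p = 0.12). From N-control to OB-TUDCA it fell by 0.92 (adjusted p = 0.00841). Cyp2c29, a phenobarbital-inducible epoxygenase, fell by 0.37 in OB-TUDCA against N-control (adjusted p = 0.0403), a call lost in turn without 6 of the 9 arrays (adjusted p from 0.0549 without OB-control replicate 3 to 0.136 without OB-TUDCA replicate 2, the others being all 3 N-control arrays and OB-TUDCA replicate 1). Cyp2c23, an arachidonic acid epoxygenase, differed from N-control by -0.92 in OB-control (adjusted p = 0.304) and -1.27 in OB-TUDCA (adjusted p = 0.0841, and 0.0337 without OB-TUDCA replicate 1, the array of that group nearest to the lean ones). Its spread was tight on lean arrays (SD 0.06) and wide on both sets of ob/ob arrays (SD 0.62 each, n = 3).

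Cyp2c39, a retinoic acid hydroxylase, ran the other way in ob/ob liver. It read 7.52, 7.70 and 7.74 in N-control, 8.80, 8.09 and 9.20 in OB-control, and 7.63, 7.56 and 7.27 in OB-TUDCA. All OB-control arrays were above those of both other groups, which overlapped each other. The mean was 1.04 higher in OB-control than in N-control (standard error 0.24, adjusted p = 0.0977 from limma) and differed by -1.21 in OB-TUDCA compared with OB-control (adjusted p = 0.0744). OB-control replicate 2 was the lowest of its group, so that leaving it out widens both differences by construction. Without it both passed (adjusted p = 0.00793 and 0.0227), and over the alternatives the adjusted p ran up to 0.562 and 0.643. Between OB-TUDCA and N-control the difference was -0.17, with a 95% interval of -0.70 to 0.36. Cyp2c38, the adjacent gene, had means of 8.79 ± 0.19, 9.42 ± 0.56 and 8.63 ± 0.26 (SD, n = 3 arrays each) in N-control, OB-control and OB-TUDCA liver, and its OB-control replicate 2 was also the lowest of its group. It is named after its values were seen, and it passed the threshold in no comparison (adjusted p = 0.353 in OB-control and 0.234 with TUDCA). Probes for genes this alike may bind each other's RNA, and this was not tested.

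**Figure D4:**
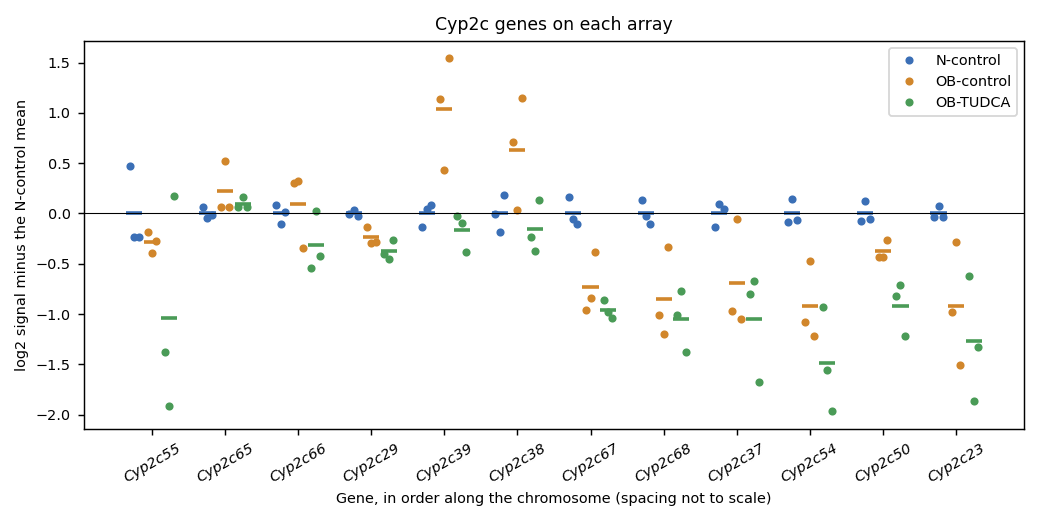
Log2 signal of the 12 Cyp2c genes on each array, minus the mean of the 3 N-control arrays, with genes in their order along chromosome 19 (spacing not to scale). Points are arrays and lines are group means; Cyp2c39 and Cyp2c38 have the OB-control mean on top, whereas from Cyp2c67 to Cyp2c23 both ob/ob means lie under 0.

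In the Cyp2d cluster, Cyp2d9 fell. Its log2 signals were 10.79, 10.81 and 10.97 in N-control, 9.70, 9.47 and 9.53 in OB-control, and 9.04, 9.37 and 9.22 in OB-TUDCA. The lean arrays stood more than 1 log2 unit above all others, and every OB-TUDCA array was below every OB-control array. The difference from N-control was -1.29 in OB-control (standard error 0.10, adjusted p = 0.000558 from limma) and -1.65, or 3.13-fold lower, in OB-TUDCA (adjusted p = 0.000127). Between OB-TUDCA and OB-control it was -0.36 (standard error 0.10, adjusted p = 0.197). Cyp2d10, with the similar promoter printed above and named for that reason, differed by -0.19 in OB-control liver (standard error 0.08, adjusted p = 0.393) and by -0.06 with TUDCA. Cyp2d11, whose promoter shares 89.0% with that of Cyp2d9 and which is named after its values were seen, differed by -0.31 in OB-control (adjusted p = 0.365) and -0.39 in OB-TUDCA (adjusted p = 0.144) against N-control, at low signal.

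Cyp2d13, one of the non-coding genes, read 9.52, 9.77 and 9.77 in N-control, 9.32, 8.66 and 8.93 in OB-control, and 8.69, 8.22 and 8.48 in OB-TUDCA. Its lean arrays were the highest, and the ranges of OB-control and OB-TUDCA overlapped slightly. It fell by 1.22 on the log2 scale from N-control to OB-TUDCA (standard error 0.17, adjusted p = 0.0082 from limma), and differed by -0.72 in OB-control (adjusted p = 0.118). Cyp2d26, by contrast, had a mean 0.29 higher in OB-control than in N-control (standard error 0.10, adjusted p = 0.249) with no overlap of arrays. The remaining Cyp2d genes had differences within the range of -0.01 to 0.18 in OB-control liver, and they, Cyp2d10 and Cyp2d11 passed the threshold in no comparison.

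Cyp2e1, Cyp2f2 and the Cyp3a genes are among the best known liver P450s, and none of them passed the threshold in any comparison. Cyp2e1, which oxidizes ethanol and is expressed around the central vein, differed by -0.14 in OB-control (95% interval -0.31 to 0.04) and -0.06 with TUDCA (95% interval -0.24 to 0.12). Cyp2f2, which activates naphthalene and in liver is periportal, differed by 0.08 in OB-control. With TUDCA its difference was -0.42 (standard error 0.14, adjusted p = 0.265 from limma). Between OB-control and OB-TUDCA the means of the pericentral (8.04 to 8.52 and 7.91 to 8.23) and periportal marker lists (9.85 to 10.52 and 9.94 to 10.21) overlapped. Of the 6 Cyp3a genes, which hydroxylate steroids, bile acids and many drugs, 5 had a lower mean with TUDCA. Cyp3a25 read 12.15, 12.22 and 12.36 in N-control, 12.34, 12.45 and 12.47 in OB-control, and 12.05, 11.91 and 12.06 in OB-TUDCA. The OB-TUDCA arrays were below all the others. The difference from OB-control was -0.42 (standard error 0.08, adjusted p = 0.0797), and that of OB-control from N-control 0.18 (adjusted p = 0.424). Cyp3a11, the main PXR target and named after its values were seen, had means of 12.41 ± 0.05, 12.18 ± 0.12 and 11.93 ± 0.23 (SD, n = 3 arrays each), and its difference between OB-TUDCA and N-control was -0.48 (adjusted p = 0.0606).

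Cyp2u1, a fatty acid hydroxylase, read 7.61, 7.43 and 7.04 in N-control, 6.19, 6.66 and 5.93 in OB-control, and 6.31, 5.83 and 5.88 in OB-TUDCA. All lean arrays were higher than all ob/ob arrays. The difference in OB-control was -1.10 (standard error 0.21) and just missed the threshold (adjusted p = 0.0528 from limma, and 0.023 without OB-control replicate 2, the array of that group nearest to the lean ones). The fall of 1.35 in OB-TUDCA against N-control passed the threshold (adjusted p = 0.0124). The latter call did not hold without N-control replicate 1 or 2 (adjusted p = 0.057 and 0.0525) or OB-TUDCA replicate 2 or 3 (0.0601 and 0.0503).

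Cyp2r1, a vitamin D hydroxylase, fell by 0.68 in OB-TUDCA against N-control (standard error 0.15, adjusted p = 0.0423 from limma), with a difference of -0.39 already in OB-control. Cyp2j5, an arachidonic acid epoxygenase of liver and kidney, fell by 0.37 in OB-TUDCA against N-control (standard error 0.07, adjusted p = 0.0288) and was -0.21 in OB-control (adjusted p = 0.272). Both calls ended when N-control replicate 1 or 2, OB-control replicate 1, or OB-TUDCA replicate 2 or 3 was dropped (adjusted p from 0.0529 to 0.155). Cyp2r1 missed it too without OB-control replicate 3 (0.0648) or OB-TUDCA replicate 1 (0.0662), and Cyp2j5 without N-control replicate 3 (0.0732). The other 5 Cyp2j genes, Cyp2j11 among them, passed in no comparison.

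The remaining subfamilies of 1 gene each, represented by Cyp2ab1, Cyp2g1, Cyp2s1, Cyp2t4 and Cyp2w1, are mainly known from other tissues or little studied and lay at low signal. Their differences ran from -0.36 (Cyp2g1, an olfactory enzyme) to 0.09 (Cyp2ab1) in OB-control and from -0.04 (Cyp2ab1) to 0.19 (Cyp2w1) with TUDCA, and none passed. Cyp2t4 had the same value, 3.21, on all 3 OB-TUDCA arrays. The widest spread within a group was that of Cyp2c55 in OB-TUDCA, with an SD of 1.08 over arrays at 4.88, 4.34 and 6.42. Cyp2c55 was named after its values were seen, and its difference of -0.76 from OB-control did not pass (adjusted p = 0.552 from limma).

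Genes that serve or control the P450s were given by a list, of which 24 genes were measured. Por was not analysed here. None of the 24 passed limma's threshold in OB-control against N-control or in OB-TUDCA against OB-control. Without adjustment, 2 were higher (6.55% of all genes) and 1 lower (5.59% of all) in OB-control against N-control at a p under 0.05. In OB-TUDCA against OB-control, 4 were higher (6.26% of all) and 3 lower (5.72% of all). The lowest p there was that of Cebpb, named after its values were seen. It differed by 0.63 with TUDCA (adjusted p = 0.0529 from limma) and by -0.45 in OB-control against N-control (adjusted p = 0.11). Of the 24 genes, 3 were called higher (1.35% of all genes) and 0 lower (1.89% of all) in OB-TUDCA against N-control. Alas1, the rate-limiting enzyme of haem synthesis, read 10.85, 10.46 and 10.76 in N-control, 10.85, 10.74 and 11.13 in OB-control, and 11.45, 11.36 and 11.54 in OB-TUDCA. The OB-TUDCA arrays were above all the others. Alas1 rose by 0.76 against N-control (standard error 0.13, adjusted p = 0.016 from limma) and differed by 0.54 from OB-control (adjusted p = 0.115), and the call ended when N-control replicate 2 (0.0525) or OB-TUDCA replicate 2 or 3 (0.0553 and 0.0574) was dropped.

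Hmox1, the haem oxygenase that breaks haem down, read 6.72, 6.91 and 6.96 in N-control, 6.24, 6.94 and 7.16 in OB-control, and 7.98, 8.65 and 7.67 in OB-TUDCA, so that the treated arrays were the highest. It rose by 1.24 against N-control (standard error 0.27, adjusted p = 0.0442 from limma) and its difference from OB-control was 1.32 (adjusted p = 0.0813). The call was lost when any 1 array other than OB-control replicates 1 and 3 was left out (adjusted p from 0.0503 to 0.162). Hnf4a, a hepatocyte transcription factor that many P450 genes depend on, rose by 0.58 in OB-TUDCA against N-control (standard error 0.13, adjusted p = 0.0451), which was lost without any 1 array other than N-control replicate 3 and OB-control replicate 2 (adjusted p from 0.0639 to 0.157). Of the 24 listed genes, 13 had a higher mean with TUDCA than in OB-control (53.6% of all genes did) and 11 a lower one. Among the 8 genes of haem synthesis and breakdown, 3 were higher and 5 lower. The 7 measured nuclear receptor and Ah receptor pathway genes all had a higher mean, by 0.03 to 0.20. None of the 7 passed, also without adjustment. Among them, Nr1i2 differed by 0.40 in OB-control against N-control (standard error 0.15, adjusted p = 0.329), Nr1i3 by 0.26 (standard error 0.26) and Ahr by -0.25 (standard error 0.25).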

How the data were processed

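Affymetrix Mouse Gene 1.0 ST arrays had been hybridized with liver RNA, 9 in all and 3 for each of 3 groups. The deposited values are log2 signals that the authors made with RMA in Expression Console (version not given in the sources used here), and no further normalization was applied. No measure of background was used here. Precision is limited by the few arrays, since 3 against 3 give no p under 0.1 in an exact permutation test. Of 35556 probe sets, the 21789 annotated with exactly 1 symbol were averaged per symbol (19938 genes), and the 1621 with several and 12146 unnamed here were left out. Array medians lay between 4.50 and 4.58. Grouping followed the labels.

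Differences were tested two-sided with limma 3.58.1 (R 4.3.3), fitting 3 group means on all 9 arrays (6 residual and 3.33 prior degrees of freedom). P-values were adjusted over all genes by the Benjamini-Hochberg method, with a threshold of 0.05, and 95% intervals come from the same fit, which was tested on simulated data. SAM with fold limits, which the methods name, was not run here.

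The members and lists were chosen with earlier results of these data known. Genes were named where they passed the threshold, were among the 5 largest differences in either direction whose arrays did not overlap, belong to family 1 or stand for a subfamily not otherwise named. Of the partners, those past the threshold and Alas1, Nr1i2, Nr1i3 and Ahr were named by rule, and Cebpb after its values were seen. Alternatives were a filter on low signal, quantile normalization once more, array medians subtracted, a trend and robust prior, and array weights. Further ones were only the groups compared, each probe set on its own, the acinar mean as a covariate and the replicate block. An ordinary t-test, the 4 left-out symbols added, and each array left out were run as well. Promoters (RefSeq, GRCm38.p6, first listed start) were aligned globally with match 1, mismatch -1, gap opening -3 and extension -1.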

Additional observations from a re-analysis of the deposited data

How the results depend on the processing

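The genes named by rule had 54 differences with an unadjusted p under 0.05, of which 0 changed sign under an alternative that was run. Of the 48 other differences of these genes 19 did, the largest of which was 0.26. Over the members, the number called higher in OB-control against N-control was 1. It was 2 with array weights, 0 with only the 2 groups compared (6 at an unadjusted p under 0.05) and 0 with the ordinary t-test (5 unadjusted). It was 4 with the left-out symbols, and 1 to 2 with each array left out. The members called lower there were 2. They were 4 with genes of low signal filtered out, with array medians subtracted, with trend and robust prior or with array weights. They were 0 with the ordinary t-test (12 unadjusted), and 2 to 4 with each array left out. With TUDCA against OB-control, the members called lower were 1, and 2 without genes of low signal or with the left-out symbols. They were 0 with array medians subtracted, only the 2 groups or the acinar covariate (8, 10 and 8 at an unadjusted p under 0.05). They were also 0 with the ordinary t-test (7 unadjusted), and 0 to 1 with each array left out. The members called higher in OB-TUDCA against N-control were 1, and 0 with the ordinary t-test (2 unadjusted) and 4 with the left-out symbols. The members called lower were 11, and 6 with the acinar covariate, 0 with the ordinary t-test (20 unadjusted), and 4 to 11 with each array left out. The members' median in OB-control against N-control was -0.01 and turned to 0.0162 without N-control replicate 3 and to 0.0145 without OB-control replicate 2 (range -0.0516 to 0.0162). That of OB-TUDCA against N-control moved from -0.19 to -0.34 without genes of low signal. The number of members with a higher mean with TUDCA was 6, and 10 with quantile normalization once more and 5 to 10 with each array left out. The cause was not tested.

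The labels do not say whether the replicate numbers pair the arrays. In OB-TUDCA against N-control, deviations of same-numbered arrays correlated by 0.09 to 0.11, and those of differently numbered arrays by -0.07 to -0.02. In OB-control against N-control these were 0.05 to 0.21 and -0.15 to 0.04. In OB-TUDCA against OB-control the ranges overlapped, at -0.08 to 0.21 and -0.30 to 0.23. A batch shared by arrays of the same number was not tested. With the replicate block the members called were 1 higher and 3 lower in OB-control, 0 and 0 with TUDCA (12 lower at an unadjusted p under 0.05) and 1 and 11 in OB-TUDCA against N-control. Under it Cyp2a12 was not called with TUDCA (adjusted p = 0.0587), nor were Cyp2c29 (0.0576) and Cyp2c68 (0.0602) in OB-TUDCA against N-control, so that these 11 were not all the same genes as without the block. Near-identical P450 genes may share probe signal, low signals compress differences, and with 3 arrays per group a difference that was not called is bounded only by its interval.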
